A study of Homo sapiens with 4 samples.

Results

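Open chromatin was examined at 10 genes of the Wnt pathway: AXIN2, LGR5, NKD1, RNF43, ZNRF3, TBX3, GLUL, LEF1, DKK1 and SFRP1. They were chosen by name, as known targets or antagonists of Wnt signaling. The rule uses no measured value, but earlier results of these data were known when the genes were chosen. ATAC-seq inserts adapters into open chromatin with a transposase, and every ATAC-seq peak was taken that overlapped the gene body or the 20 kb on either side of it. Peaks sharing 1 bp or more across libraries were joined into regions, 68 of them at the 10 genes and 80551 in the genome (hg38). The cells were HepG2, a human liver cancer line grown in culture. The 2 control libraries came from untreated cells and the 2 tazemetostat libraries from cells given 5 µM tazemetostat for 48 h, with 50000 cells per library. Tazemetostat inhibits EZH2, the histone H3 methyltransferase of a polycomb complex that keeps genes silent. The comparison asked how chromatin accessibility changed when EZH2 was inhibited. Nothing in the labels says that libraries of a group came from separate cultures, so p-values measure only the spread between these libraries, which may be technical. The protocol text names a DNase pretreatment of the tazemetostat-treated cells and does not say whether the controls had it.

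In canonical Wnt signaling, a Wnt ligand binds a Frizzled receptor with LRP5 or LRP6, the destruction complex of APC, AXIN and GSK3 stops degrading β-catenin, and β-catenin joins TCF/LEF factors on DNA to switch on target genes. Many targets feed back on the pathway: AXIN2 rebuilds the destruction complex, NKD1 acts on Dishevelled, RNF43 and ZNRF3 are ubiquitin ligases that clear Frizzled from the cell surface, and LGR5 is an R-spondin receptor that holds those ligases back. In the liver, β-catenin activity marks hepatocytes around the central vein, where GLUL, glutamine synthetase, and TBX3, a T-box transcription factor, are targets. DKK1 is a secreted inhibitor of LRP5 and LRP6, and SFRP1 is a secreted protein that binds Wnt ligands. HepG2 carries a deletion in CTNNB1 that leaves β-catenin active without ligand.

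Control 1 and control 2 were sequenced to 17.2 and 23.8 M mapped tags, and tazemetostat 1 and tazemetostat 2 to 19.8 and 26.6 M. Peaks took 4.32% and 5.69% of the tags in the controls and 11.5% and 9.81% in the treated libraries, and the fragment length set by HOMER was 200 bp in both controls and 144 bp in both tazemetostat libraries. These 2 properties separate the groups exactly as the treatment does and cannot be told apart from it. Of 10 hepatocyte marker genes, 7 had a peak at the start in every library, and ALB, AFP and FGB had none. No endothelial or fibroblast marker of 3 each had a start peak, and of 4 leukocyte markers CD14 alone had one, in 1 tazemetostat library at a normalized tag count of 14.6.

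TCF/LEF factors bind a short word whose core is CTTTGAT or CTTTGAA. Within the central 200 bp, 15 of the 68 regions held either word on either strand (22.1%), compared with 8.36% of the 78220 regions on the assembled chromosomes. Among regions called in all 4 libraries the share was 11 of 26 (42.3%), compared with 10.1% of 16074. The HNF4 words CAAAGTCCA and CAAAGTTCA, which share letters with the reverse complement of the TCF/LEF words and can overlap them, were in 1 of the 68 central windows (1.47%) and in 2.34% of all. Over whole regions, 28 regions held 38 TCF/LEF matches, of which ZNRF3 had 16, RNF43 7, LGR5 5, AXIN2 4, NKD1 3, DKK1 2 and TBX3 1, while GLUL, LEF1 and SFRP1 had 0. A match is a description of the letters and was not tested as a binding site.

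**Figure D1:**
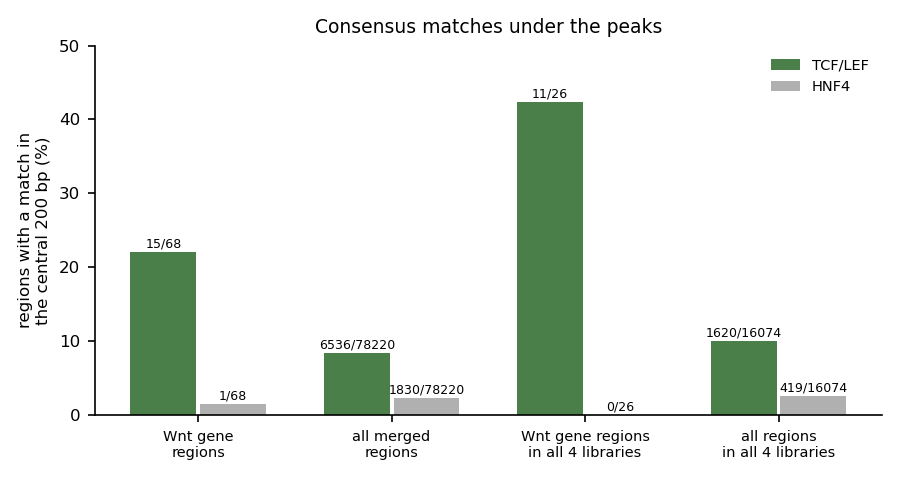
Share of regions, in %, with a TCF/LEF (green) or HNF4 (grey) consensus word in the central 200 bp, for regions at the 10 Wnt genes and for all merged regions. The numbers over the bars are regions with a match over regions on the assembled chromosomes. TCF/LEF words were in 22.1% of the Wnt gene regions and in 42.3% of those called in all 4 libraries.

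For each gene, the region without an annotated exon that had a TCF/LEF word and the highest mean normalized tag count is shown by 50 bases on either side of the word, with the word in capitals (hg38, plus strand, 5′ to 3′). AXIN2 is shown over its 3 words, because words lying near the one closest to a region's center were shown with it. Its 3 copies of CTTTGAA start 80 bases apart. The other 4 genes had no such region.
AXIN2, chr17:65516023-65516289: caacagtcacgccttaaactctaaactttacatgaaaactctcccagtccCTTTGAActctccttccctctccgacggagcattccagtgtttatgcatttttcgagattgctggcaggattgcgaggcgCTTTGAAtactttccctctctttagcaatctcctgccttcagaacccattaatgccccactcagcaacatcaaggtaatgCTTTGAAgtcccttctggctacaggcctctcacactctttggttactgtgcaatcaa
LGR5, chr12:71537108-71537214: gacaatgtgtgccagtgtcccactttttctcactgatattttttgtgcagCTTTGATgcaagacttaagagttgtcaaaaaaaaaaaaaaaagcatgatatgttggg
NKD1, chr16:50539336-50539442: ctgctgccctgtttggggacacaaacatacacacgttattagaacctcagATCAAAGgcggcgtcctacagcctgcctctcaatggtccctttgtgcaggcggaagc
RNF43, chr17:58391654-58391760: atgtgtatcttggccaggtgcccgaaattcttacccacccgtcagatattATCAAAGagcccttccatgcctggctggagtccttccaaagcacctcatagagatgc
ZNRF3, chr22:28865020-28865126: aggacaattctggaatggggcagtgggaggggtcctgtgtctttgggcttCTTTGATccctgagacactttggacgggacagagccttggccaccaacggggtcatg
DKK1, chr10:52308683-52308789: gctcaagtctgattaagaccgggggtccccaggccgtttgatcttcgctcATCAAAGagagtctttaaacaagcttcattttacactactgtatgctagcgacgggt

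More peaks and more tags were found at the Wnt genes under tazemetostat, as over all peaks of the genome. The regions were called as 42 and 40 peaks in the controls and as 52 and 53 in the treated libraries, a difference of 11.5 peaks per library (exact permutation test, two-sided p = 0.33, the smallest that 2 against 2 allows). The ratio of group means was 1.28, compared with 1.80 over all peaks, which numbered 26133 and 34768 in the controls and 55313 and 54157 in the treated libraries. The normalized tag count is the number of tags in a peak per 10 M mapped tags. Summed over the 10 genes it was 849.5 ± 77.6 in the controls and 1628 ± 157 under tazemetostat (SD, n = 2), 1.92 times as high. Over all peaks of the genome, the share of mapped tags in peaks also rose, from 4.32% and 5.69% to 11.5% and 9.81%. The rise in tags was therefore not particular to the Wnt genes. The length covered at the 10 genes was 20073 and 20866 bp in the controls and 29058 and 29335 bp in the treated libraries. Their count per kb of peak thus rose less, from 41.5 ± 2.66 to 55.8 ± 5.74 (SD, n = 2). In these bulk libraries, more cells with a region open and more cuts per open cell cannot be told apart. The groups did not overlap in any of these 3 measures, each with an exact permutation p of 0.33. The median enrichment over the surrounding 10 kb, the fold change over local background, was 5.15 and 5.85 in the controls and 5.33 and 5.02 under tazemetostat, where the groups overlapped.

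Of the 68 regions, 26 were called in all 4 libraries (38.2%, compared with 20.4% of all regions) and 15 in 3 (22.1%, compared with 14.1%). Another 8 were called in 2 libraries (11.8%, compared with 19.3%) and 19 in a single library (27.9%, compared with 46.2%). Both tazemetostat libraries and neither control called 4 regions (5.88%, compared with 13.7% of all regions), while 0 were called in both controls alone (0.449% of all regions). The share of tazemetostat-only regions lay below that of all regions, without a test. The 19 single-library regions were weak, with normalized tag counts between 6.02 and 18.6, and they came from control 1 in 7 cases, control 2 in 1, and the tazemetostat libraries in 5 and 6. By position, 45 regions lay in the named gene, 13 upstream and 10 downstream. By class, counted over all annotated genes, 42 were intronic, 16 at a promoter, 8 intergenic and 2 exonic. A promoter here was 1 kb before to 100 bp after the start of any transcript of any gene. Some of the 16 are thus promoters of neighboring genes, such as SUPT4H1 and KREMEN1.

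**Figure D2:**
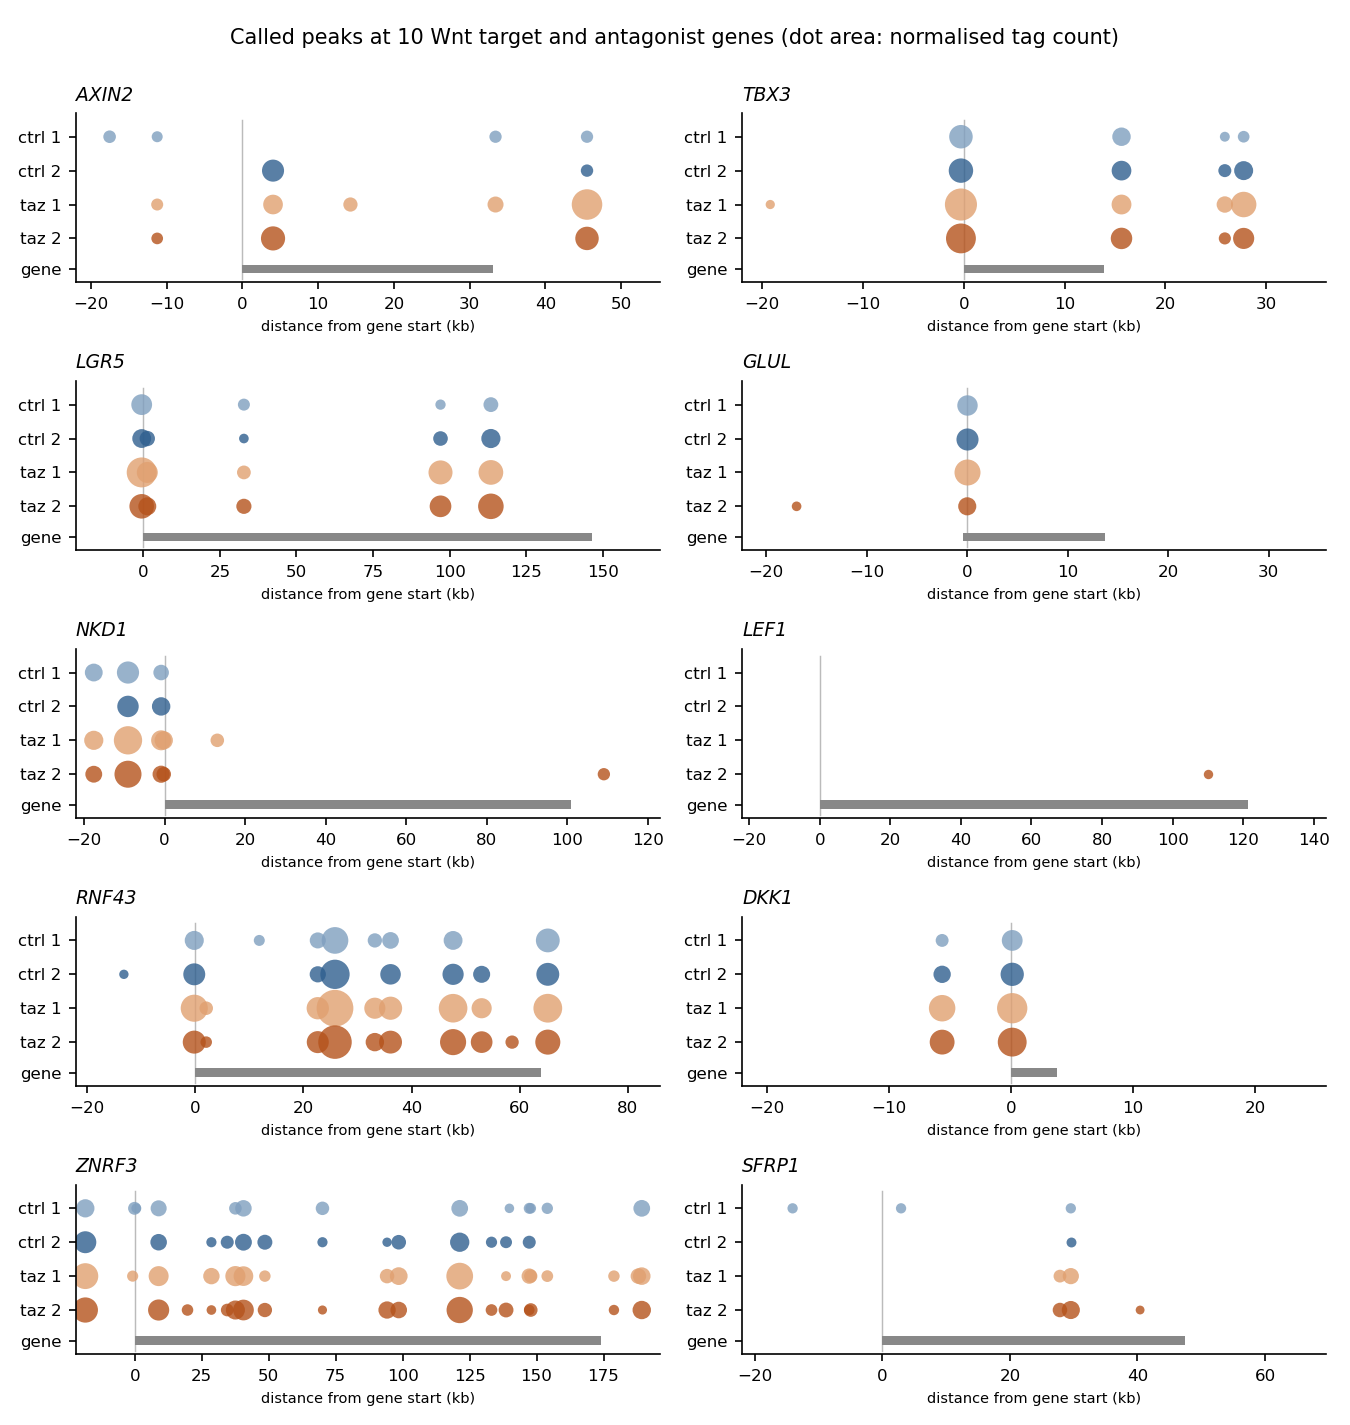
Called peaks along the 10 genes in each library, drawn at the distance of the merged region's center from the gene start in kb, with dot area proportional to the normalized tag count and the gene body as a grey bar. LGR5, RNF43, TBX3, GLUL and DKK1 have a peak at the start in all 4 libraries, and LEF1 has a single dot, in tazemetostat 2.

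Changes in signal were tested with limma on log2(normalized tag count + 1) over the 15383 regions with exactly 1 peak in each library, with Benjamini-Hochberg adjustment over all of them. Of 24 testable Wnt gene regions, 11 rose past an adjusted p of 0.05 (45.8%), compared with 42.7% of all tested regions, and 0 fell, compared with 0.247%. None fell at an unadjusted p under 0.05 either, nor by edgeR with TMM factors, where 1.13% of all tested regions fell, or DESeq2, where 0.683% did. The median log2 change was 0.71 over the 24 regions and 0.70 over all tested regions. Both tazemetostat values exceeded both control values in 21 of 24 regions (87.5%), compared with 81.6% of all tested regions. Leaving out either tazemetostat library ended these calls, here as over all tested regions. Leaving out either control library ended some of them. The median log2 change of the 24 was 0.64 without control 1 and 0.90 without control 2. It was 0.69 without tazemetostat 1 and 0.81 without tazemetostat 2. When the tag totals were rescaled by edgeR's TMM factors, which place the bulk of regions at no change, 1 of the 24 rose, the AXIN2 region, compared with 0.15% of all tested regions. Peak size was larger on average under tazemetostat in 20 of 24 regions (83.3%, compared with 85.7% of all), and the fold over local background was lower in 15 of 24 (62.5%, compared with 44.4%). The part of peak size and of the share of tags in peaks in these rises was not tested.

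**Figure D3:**
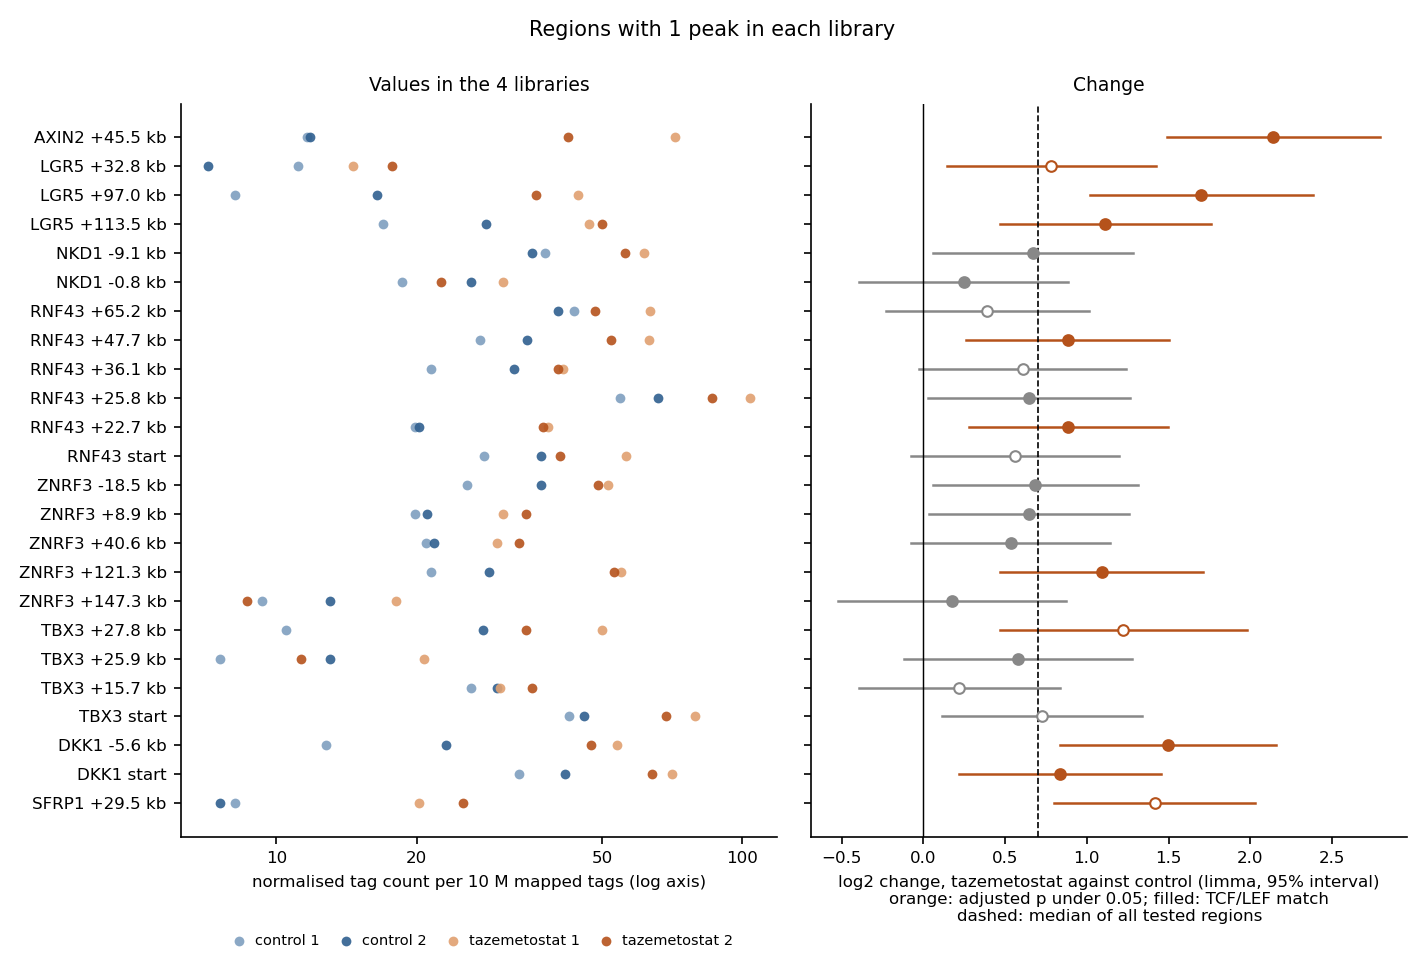
The 24 regions with 1 peak in each library, named by gene and distance from its start: normalized tag count per 10 M mapped tags in each library (left, log axis) and the limma log2 change of tazemetostat against control with its 95% interval (right). Orange marks the 11 regions past an adjusted p of 0.05, filled points hold a TCF/LEF word, and the dashed line is the median change of all tested regions, 0.70.

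The 16 tested regions with a TCF/LEF word anywhere had a median log2 change of 0.76, and 8 of them rose. The 8 without one had a median of 0.67, and 3 rose. The difference between these groups of regions was not tested.

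AXIN2 (ENSG00000168646.14, chr17:65528563-65561648, minus strand), the feedback scaffold and one of the most general Wnt targets, had 6 regions. Of these only 1, downstream of the gene, could be tested. The intergenic region at chr17:65515683-65516597, whose sequence with 3 CTTTGAA words is given above, lies 12 kb past the end of the gene body and held normalized tag counts of 11.6 and 11.8 in the controls and 71.6 and 42.2 under tazemetostat. The lower tazemetostat library was several times above both controls, and the log2 change was 2.14 (SE 0.31, limma adjusted p = 0.0019), the third largest rise of 15383 tested regions. The peak itself widened from 403 and 409 bp to 914 and 731 bp, and the log2 change per kb of peak was 1.19 (limma adjusted p = 7.5e-05). After the library medians were set equal, the log2 change was 1.38 and the call was lost (limma adjusted p = 0.14). In that setting 0 of the 15383 tested regions were called as rising. The region was the only Wnt gene region called under TMM scaling, at a log2 change of 1.54 (edgeR adjusted p = 0.0080). The call was lost without tazemetostat 1 (log2 change 1.77, limma adjusted p = 0.22) and without tazemetostat 2 (2.52, adjusted p = 0.095). Fold over local background was 5.23 and 5.46 in the controls and 4.01 and 5.67 under tazemetostat, which overlapped.

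No library had a peak at the AXIN2 start. The intronic region at chr17:65557365-65557856, 4.0 kb into the gene, had the highest mean of the locus, with 37.4 in control 2, no call in control 1, and 29.7 and 44.8 under tazemetostat. The control 2 value lay between the 2 tazemetostat values, and with a library missing the region could not be tested. This stretch also overlaps a long noncoding gene, ENSG00000266076, and ATAC-seq does not assign a peak to one of overlapping genes.

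LGR5 (ENSG00000139292.13, chr12:71439798-71586310, plus strand), the R-spondin receptor, was open at its start in all libraries. The start region at chr12:71438725-71439831 summed to 33.2 and 27.3 in the controls and 69.0 and 46.3 under tazemetostat. The groups did not overlap. It was split into 2 peaks in tazemetostat 1 and was not tested. It also overlaps TSPAN8. All 3 tested LGR5 regions rose. The intronic region at chr12:71536262-71537375, 97.0 kb into the gene, held 8.14, 16.4, 44.3 and 36.1 in control 1, control 2, tazemetostat 1 and tazemetostat 2, a log2 change of 1.70 (SE 0.33, limma adjusted p = 0.0046). Its peak widened from 300 and 544 bp to 1113 and 1061 bp, and per kb of peak the log2 change was 0.35 (limma adjusted p = 0.18), which ended the call. The region at chr12:71552774-71553752, which overlaps an LGR5 exon, held 16.9 and 28.2 in the controls and 46.9 and 50.1 in the tazemetostat libraries, a log2 change of 1.11 (SE 0.31, limma adjusted p = 0.015), which fell to 0.76 and lost the call without control 1 (adjusted p = 0.084). The weaker intronic region at chr12:71472314-71472961 held 11.1 and 7.14 against 14.6 and 17.7, a log2 change of 0.78 (SE 0.31, limma adjusted p = 0.046). That call was lost per kb of peak (log2 change 0.28, limma adjusted p = 0.29), without control 2 (0.50, adjusted p = 0.19) and with the replicate block (adjusted p = 0.066).

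NKD1 (ENSG00000140807.7, chr16:50548396-50649249, plus strand), the Dishevelled antagonist, had its strongest region 9.1 kb upstream at chr16:50538964-50539687. Its normalized tag counts were 37.8 and 35.3 in the controls and 61.5 and 56.1 under tazemetostat. The groups did not overlap, but the log2 change of 0.67 (SE 0.29) had a limma adjusted p of 0.065. No region overlapped the start itself.

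RNF43 (ENSG00000108375.13, chr17:58353676-58417595, minus strand), the first of the pair of ubiquitin ligases, had 12 regions, 6 of them tested and 2 of these past the threshold. The start region at chr17:58417362-58418052 held 27.9 and 37.0 in the controls and 56.4 and 40.7 in the tazemetostat libraries, a log2 change of 0.56 (SE 0.31, limma adjusted p = 0.12). It stood far above its surroundings in each library, at 41.3, 10.1, 23.3 and 18.4 times the local background. The same region also holds the start of ENSG00000285897, an overlapping coding gene. The highest region of the 10 genes by mean tag count was intronic, at chr17:58391254-58392119. It held 54.7 and 66.0 in the controls and 103.8 and 86.2 under tazemetostat, without overlap, a log2 change of 0.65 (SE 0.30, limma adjusted p = 0.076). The intronic regions at chr17:58394577-58395160 and chr17:58369493-58370205 rose by 0.89 (SE 0.29, limma adjusted p = 0.026) and 0.88 (SE 0.30, limma adjusted p = 0.028). The first of these held 19.8, 20.2, 38.3 and 37.3 and the second 27.3, 34.5, 63.0 and 52.3, in the order of the libraries above. The second lost its call without control 1 (log2 change 0.72, limma adjusted p = 0.10). In it, the TCF/LEF word and an HNF4 word overlap. A weak region called under tazemetostat only, at chr17:58415340-58415654, held 14.1 and 10.2 and overlaps an exon. Most of the RNF43 body is also covered by ENSG00000285897 and TSPOAP1-AS1, and the region 65.2 kb past the start lies at the start of SUPT4H1, which encodes a transcription elongation factor.

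ZNRF3 (ENSG00000183579.16, chr22:28883572-29057488, plus strand), the other ligase, is the longest of the 10 genes and had the most regions, 24, of which 5 were called in all libraries, 1 in both tazemetostat libraries alone and 18 in another combination. Its start region at chr22:28883238-28883695 was called in control 1 alone, at 12.8. The highest region lay 18.5 kb upstream at chr22:28864653-28865542, with 25.6 and 37.0 in the controls and 51.4 and 48.9 in the tazemetostat libraries, a log2 change of 0.69 (SE 0.30, limma adjusted p = 0.067). Of 5 tested regions, 1 rose, the intronic region at chr22:29004392-29005375, which held 21.5, 28.6, 54.9 and 53.1, a log2 change of 1.09 (SE 0.30, limma adjusted p = 0.014). A region called under tazemetostat only, at chr22:29062305-29062627, held 10.1 and 8.28 and lies at the promoter of C22orf31. At the far end of the window, the start of KREMEN1, a co-receptor of DKK1, was open at 21.5 in control 1 and 23.7 and 26 under tazemetostat.

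TBX3 (ENSG00000135111.16, chr12:114670255-114684175, minus strand) was most open at its start, chr12:114684043-114684867, with 42.5 and 45.8 in the controls and 79.1 and 68.5 under tazemetostat. The groups did not overlap, and the log2 change of 0.73 (SE 0.29) had a limma adjusted p of 0.051. Per kb of peak it was 0.69, with a limma adjusted p of 0.013. This start region also overlaps TBX3-AS1. Of the 4 tested regions, the intergenic one downstream at chr12:114656001-114656795 rose, from 10.5 and 27.7 to 49.9 and 34.3, a log2 change of 1.22 (SE 0.36, limma adjusted p = 0.018). Its controls differed more from each other than its tazemetostat libraries did. Without control 1 the log2 change was 0.56 and the call was lost (limma adjusted p = 0.19), and without control 2 it was 1.88.

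GLUL (ENSG00000135821.19, chr1:182378098-182392206, minus strand) had a single region apart from 1 weak call, the start at chr1:182391165-182392411. It held 32.0, 37.4, 51.9 and 25.2 in the order control 1, control 2, tazemetostat 1 and tazemetostat 2. The tazemetostat libraries held the highest and the lowest value, so the groups overlapped, and with 2 peaks in control 2 the region was not tested. The other call, at 7.15 in tazemetostat 2, was 17.0 kb upstream. LEF1 (ENSG00000138795.10, chr4:108047545-108168956, minus strand), the TCF/LEF factor that is itself a Wnt target, had no peak at its start in any library. Its 1 region, intronic at chr4:108058735-108059035, was called in tazemetostat 2 alone, at 6.78.

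Of the antagonists, DKK1 (ENSG00000107984.10, chr10:52314281-52318042, plus strand) had 2 regions, and both rose. The start region at chr10:52313832-52314942 held 33.2 and 41.6 in the controls and 70.5 and 64.0 in the tazemetostat libraries, a log2 change of 0.84 (SE 0.30, limma adjusted p = 0.033). This call was lost without control 1 (log2 change 0.68, limma adjusted p = 0.12) and with the replicate number as a block (limma adjusted p = 0.053). The DKK1 start region also lies at a promoter of PRKG1-AS1. The other tested start regions were those of RNF43 and TBX3. The region 5.6 kb upstream at chr10:52308223-52309082, in an intron of PRKG1-AS1 and shown above with its ATCAAAG word, held 12.8 and 23.1 in the controls and 53.9 and 47.4 under tazemetostat. Its log2 change was 1.5 (SE 0.32, limma adjusted p = 0.0067), and per kb of peak it was 1.12 (limma adjusted p = 2.0e-04).

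The other antagonist, SFRP1 (ENSG00000104332.12, chr8:41261962-41309473, minus strand), had no peak at its start in any library. Its strongest region, intronic at chr8:41279569-41280285, held 8.14 and 7.56 in the controls and 20.2 and 25.2 in the tazemetostat libraries, a log2 change of 1.41 (SE 0.30, limma adjusted p = 0.0065). Its peak widened from 300 bp in both controls to 534 and 637 bp, and per kb of peak the log2 change was 0.55 (limma adjusted p = 0.041). Next to it, a region at chr8:41281362-41281900 was called under tazemetostat only, at 12.6 and 16.2. The 3 remaining SFRP1 regions were single-library calls, between 6.02 and 8.14.

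Summed over each window, tag totals did not overlap between groups in 8 of the 10 genes, with both tazemetostat libraries higher, as in 81.5% of the 18138 coding gene windows with a region. The exceptions were GLUL, at 32.0 and 37.4 against 51.9 and 32.4, and LEF1. The ratio of group means ran from 1.65 for TBX3 to 2.61 for AXIN2 among the 8. Per kb of peak, NKD1 overlapped, at 49.1 and 60.4 in the controls and 63.0 and 55.5 under tazemetostat, and GLUL did not, at 37.4 and 32.3 against 48.3 and 41.5. DKK1 had the largest ratio, 1.93, at 32.3 and 38.1 against 69.4 and 66.3. Under tazemetostat RNF43 had the highest count per kb of peak of the 10 genes, at 84.9 and 68.9, a lead over DKK1 that was within the spread of its own libraries. Each gene-level test of 2 against 2 was limited to an exact permutation p of 0.33 or above.

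**Figure D4:**
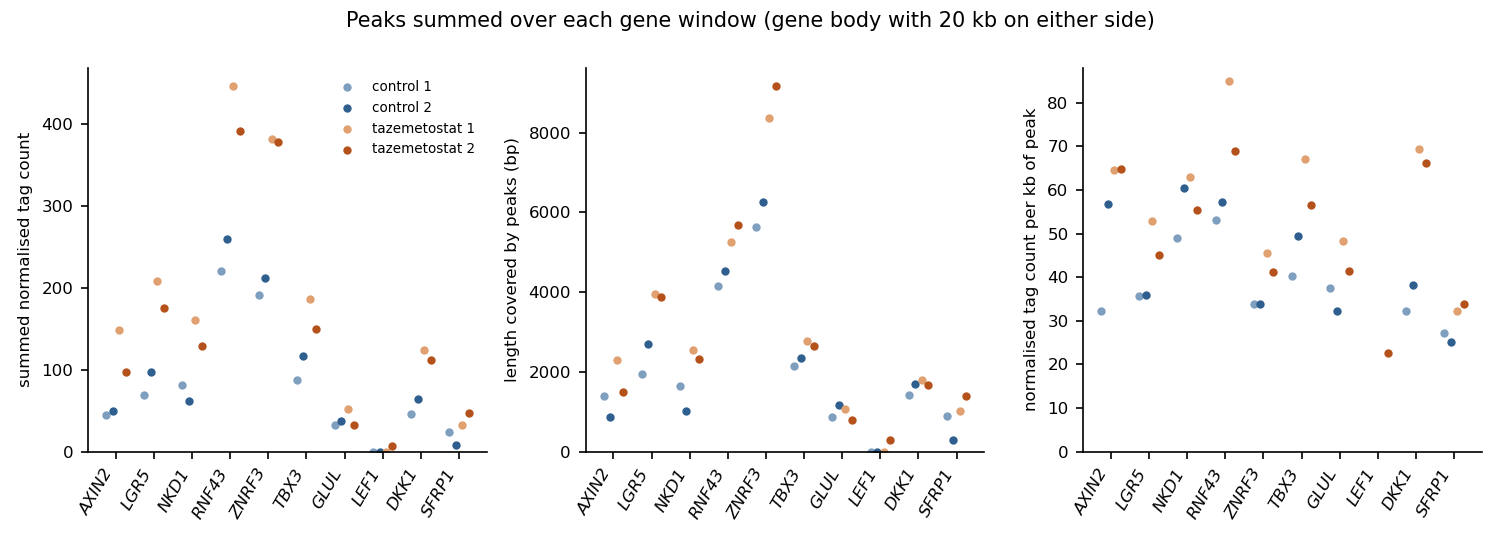
Summed normalized tag count (left), length covered by peaks in bp (middle) and normalized tag count per kb of peak (right) for each gene window, with 1 point per library. In the left panel both tazemetostat points lie above both control points for every gene but GLUL and LEF1.

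Of 73 further Wnt genes, 67 had a region, and of their 83 tested regions 39 rose (47.0%, compared with 42.7% of all tested regions) and 0 fell by limma, with 0 rising or falling under TMM scaling by edgeR (0.15% and 1.13% of all tested regions). Receptors had 10 of 16 tested regions rising, other antagonists 6 of 9, the liver targets of the pericentral zone 5 of 8, WNT ligands 4 of 7, nuclear partners 7 of 18, the destruction complex and its transducers 6 of 20, other targets 1 of 4 and R-spondins 0 of 1. Of their 329 regions, 39 were called under tazemetostat only (11.9%, compared with 13.7% of all regions). In both controls only, 3 of the 329 were called, compared with 0.449% of all regions. LGR4, the LGR5 relative, had 5 of 6 tested regions rising, and the largest went from 9.89 and 31.5 to 52.9 and 40.3, a log2 change of 1.33 (SE 0.38, limma adjusted p = 0.016). CTNNB1, which encodes β-catenin, had 2 of 6 tested regions rising. The larger of these rises, at its start, went from 8.73 and 16 to 34.3 and 26.7, a log2 change of 1.28 (SE 0.32, limma adjusted p = 0.011). None of 18 WNT ligand genes had a peak at its start in any library. A start peak was also missing in 4 of the 10 member genes and in 3 of the 10 hepatocyte markers. The share over all coding gene starts was not counted, so the ligands cannot be compared with it. The start of SP5, a direct β-catenin target, was called in both controls at 24.4 and 30.3 and in neither tazemetostat library, although the tested region in its window rose by 0.93 (SE 0.30, limma adjusted p = 0.025). These further genes were described by counts, and the 3 named here were picked after their values were seen.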

How the data were processed

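ATAC-seq, which cuts open chromatin with a transposase, was measured in 2 control and 2 tazemetostat libraries. Trimming (Trim Galore 0.6.6), alignment to hg38 (Bowtie2 2.3.5.1) and peak calling in each library (HOMER 4.11.1) were done by the authors. The headers give peaks that were 300 bp or longer after joining, at least 4 fold over the local 10 kb at a p-value of 1.0e-04, with a false discovery rate of 0.001. No shift of reads for the transposase is stated in the sources used here. The deposited normalized tag count is a signal per 10 M mapped tags, the deposited fold over local background is a ratio, the deposited p-value is HOMER's against the local background, and the deposited findPeaks score is a whole count of tags. Depth, 17.2 to 26.6 M mapped tags, set the lowest listed value at 4.89 to 6.4, and a missing call does not show closed chromatin.

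Peaks overlapping by 1 bp or more were merged with pandas 2.3.3. Members were the regions overlapping a gene body of GENCODE release 44 extended by 20 kb, and a gene start was that of the canonical transcript. Members, pathway genes and markers were chosen with earlier results of these data known. limma 3.58.1 was run in R 4.3.3 on log2(value + 1), and the log2 changes are on that scale and understate those of weak regions. Exact permutation tests over libraries were two-sided. As alternatives, edgeR 4.0.16 and DESeq2 1.42.0 were run on whole tags, taken as value × mapped tags / 10 M, which lay within 0.25 of a whole number in every peak and summed to the totals in the headers. That step could not be checked from the values alone, because the lists hold no peak near 1 tag. Other alternatives were median centering, values per kb of peak, a pseudocount of 5, a mean of at least 15, a replicate block, each library left out, a local fold of at least 8, equal peak numbers, a 50% overlap, a 10 kb window and the gene body alone. For each gene the text names the region at the start, the one with the highest mean, those past the threshold (the 3 with the largest change where more passed), and the strongest called in 1 group alone, of which 1 is not reported here. Words were read on both strands of hg38 with pysam 0.24.0, and all 80551 regions lay within its chromosomes.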

Additional observations from a re-analysis of the deposited data

How the results depend on the processing

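Of 192 repeats over 16 named regions, 101 kept direction and side of the threshold, 63 lost the call, 15 gained it and 13 changed sign. The count of rising Wnt gene regions, 11, became 0 after median centering, 1 with edgeR's TMM factors, 1 with DESeq2 and 0 at a local fold of at least 8, where 1 region could be tested. It ran from 0 to 16 with a library left out. These leave-one-out fits assume that the lone library of a group varies like the others, and the cause of the lost calls was not tested. It was 9 to 15 otherwise. The median change, 0.71, became -0.0545 after centering, -0.0002 with TMM and -0.0053 with DESeq2; these scalings set the bulk of regions to no change. The count of falling regions was 0 in every repeat.

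After centering, TMM and DESeq2 respectively, the log2 change was -0.0894, -0.0234 and -0.0337 at NKD1 50538964, -0.114, -0.0706 and -0.0668 at RNF43 58391254, -0.198, -0.159 and -0.149 at RNF43 58417362, and -0.0745, -0.0427 and -0.0318 at ZNRF3 28864653. It was -0.0344 at TBX3 114684043 after centering alone. Of the 11 rises, AXIN2 alone stayed called with TMM and DESeq2.

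Regions called under tazemetostat only, 4, were 2 with equal peak numbers, 0 at a local fold of at least 8, 2 in the gene body alone, and 9 to 12 with a library left out. Control-only regions, 0, were 1 at a local fold of at least 8 and 0 to 7 with a library left out, 7 without control 2. Regions in all libraries, 26, were 1 at a local fold of at least 8 and 17 in the gene body alone. The difference of 11.5 peaks per library was 2 with equal peak numbers, 0.5 at a local fold of at least 8 and 7 in the gene body alone. The cause of these shifts was not tested, beyond the smaller window or fewer peaks.

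Same-numbered libraries did not deviate together from region to region (correlation of deviations -0.0025). A shift common to all regions of a library does not enter this correlation. The labels do not say whether same-numbered libraries were paired. With the number as a replicate block, 9 regions rose instead of 11. Depth limits the weak regions, the lowest of which held 12 tags in a library.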
